A study of Mus musculus with 12 samples.

Results

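Chemokines listed as made by CD4+ T cells were followed here as 8 genes: Ccl1, Ccl3, Ccl4, Ccl5, Xcl1, Ccl9, Ccl17 and Ccl22. RNA of a whole cell preparation does not show which of its cells transcribe them. Every probe set that the array's annotation assigned to one of these genes alone was taken, which gave 9 probe sets for the 8 genes, of 34945 such probe sets for 18193 genes on the array. Ccl9 had 2 probe sets and each other gene had 1. RNA of mouse CD4+ T lymphocytes had been hybridised to 12 Affymetrix Mouse Genome 430 2.0 chips, and each of the 4 groups held 3 of them.

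The first comparison set SKG mice, a BALB/c-background strain that carries a point mutation of Zap70 and develops autoimmune arthritis, against BALB/c mice. Both were females of 40 weeks, and their cells were stimulated with PMA and ionomycine, which activate T cells downstream of the antigen receptor. The cells of SKG replicates 1 to 3 and of BALB replicates 2 and 3 were FR4- CD4+ lymphocytes from lymph node; FR4 is a surface protein carried by most regulatory T cells. BALB replicate 1 is labelled instead as CD4+ cells of spleen and lymph node with no FR4 selection. The second comparison used splenic CD4+ T lymphocytes of 7-week females, taken 7 days after transfer, with no stimulation named in their labels. In one group CD4 T cells of IFNg KO BALB/c mice had been given to RAG2 KO BALB/c hosts, which lack T and B cells of their own but keep NK cells and other innate cells (the IFNg KO transfer). In the other, cells of IL-6 KO BALB/c mice had been given to hosts lacking both IL-6 and RAG2 (the IL-6 KO transfer). Donor and host genotype therefore differ together, and a transfer of unmodified cells is not among the groups. Age, tissue, labelled FR4 selection, stimulation and the transfer into hosts without RAG2 differ between the 2 comparisons and cannot be told apart from them. Nothing in the labels ties a replicate to an animal of its own, and a p-value here covers only array-to-array spread, part or all of which may be technical.

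Chemokines are small secreted proteins that bind receptors coupled to G proteins and direct the movement of leukocytes along their gradients. Activated T cells transcribe several of them within hours of antigen receptor signalling, through NFAT, AP-1 and NF-kappaB factors among others. Ccl1 binds Ccr8, which is found on activated T cells including Th2 and regulatory cells. Ccl3, Ccl4 and Ccl5 draw monocytes and effector T cells, and Ccl3, Ccl5 and Ccl9 bind Ccr1. Xcl1 is the ligand of Xcr1, the receptor of cross-presenting dendritic cells, and Ccl17 and Ccl22 are the ligands of Ccr4.

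In the RefSeq gene order, Ccl5, Ccl9, Ccl3 and Ccl4 lie in one run of chemokine genes on mouse chromosome 11. Ccl9 follows Ccl5 directly, Ccl6 stands between Ccl9 and Ccl3, and Ccl4 follows Ccl3. Ccl1 is on the same chromosome outside that run, beside Ccl8. Ccl22 and Ccl17 flank Cx3cl1 on chromosome 8, and Xcl1 is on chromosome 1. RefSeq promoter windows (GRCm38.p6) matched 6 of the 8 genes, the exceptions being Ccl4 and Ccl5. The 200 bases before the transcript start are shown for 3 genes that were higher in SKG cells, since the cells were stimulated with agents that activate NFAT. The window of Ccl1 is chr11:82179813-82180012, that of Ccl3 is chr11:83649379-83649578 and that of Xcl1 is chr1:164935523-164935722, all on the minus strand and written 5′ to 3′ along the gene. Capitals mark the NFAT core GGAAA on either strand and, in Ccl1, also the first capital run, a match to the NF-kappaB consensus.
Ccl1: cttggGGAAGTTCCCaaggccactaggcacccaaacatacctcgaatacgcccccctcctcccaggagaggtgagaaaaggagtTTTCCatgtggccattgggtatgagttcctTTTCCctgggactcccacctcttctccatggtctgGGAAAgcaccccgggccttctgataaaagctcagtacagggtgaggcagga
Ccl3: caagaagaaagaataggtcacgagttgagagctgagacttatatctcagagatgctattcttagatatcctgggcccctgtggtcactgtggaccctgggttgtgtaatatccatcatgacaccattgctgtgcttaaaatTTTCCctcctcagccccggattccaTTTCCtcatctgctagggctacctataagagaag
Xcl1: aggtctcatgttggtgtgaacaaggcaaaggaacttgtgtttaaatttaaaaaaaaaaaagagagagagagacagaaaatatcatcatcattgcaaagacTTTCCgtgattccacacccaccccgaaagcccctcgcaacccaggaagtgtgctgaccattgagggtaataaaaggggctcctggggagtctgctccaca

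In the 250 bases before the start, searched on both strands, the NFAT core was found 3 times in Ccl1, 2 times in Ccl3 and once in Xcl1. The matches of Ccl1 began 116, 86 and 51 bases before the start, those of Ccl3 59 and 34 bases before it, and that of Xcl1 100 bases before it. Ccl9 held 2 cores and Ccl17 held 1, while Ccl22 held none in its window. The core is short and common, being present in 55.6% of the 32851 RefSeq windows of that length. The NF-kappaB consensus, present in 5.0% of windows, was matched once in Ccl1, 195 bases before the start, and once in Ccl9, where it overlaps an NFAT core. The AP-1 motif TGANTCA (6.75% of windows) was matched in Ccl9 alone, at 1 site that reads on both strands, and TATAAA (12.4% of windows) also in Ccl9 alone. These matches describe letters and not occupied sites.

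Levels below are log2(intensity + 16) after quantile normalization of the arrays compared, and a fold change is a difference on that scale, which understates changes of dim genes. The test took genes whose mean level was at or above the 40th percentile over probe sets. Of the 8 chemokines, 7 passed this filter in each comparison and Ccl17 in none. A gene is called on the array here if a probe set was annotated to it alone. Of 6 T cell markers listed, Lck and Trac had no such probe set. The other 4 (Cd3e, Cd3g, Cd4 and Cd2) were above that percentile on each of the 12 arrays. Their levels were not all equal. Between SKG and BALB cells Cd3g had a log2 fold change of 1.06 (adjusted p = 0.051, limma). In limma with the replicate number as a block its adjusted p was 0.00057. Cd3e, Cd4 and Cd2 did not pass in either fit. Replicate 3 stood apart from replicates 1 and 2 in each of the 4 groups. The median absolute difference over 27022 probe sets was 0.15 to 0.20 between replicates 1 and 2, against 0.31 to 0.40 between either of them and replicate 3. The ratio of the 3′ to the 5′ control probe set of Gapdh, a sign of RNA integrity, was 7.99 in replicate 3 of the IFNg KO transfer and 9.33 in replicate 3 of the IL-6 KO transfer, and between 2.42 and 3.28 on the other 10 arrays. The same ratio for actin was 2.12, 1.93 and 2.63 in SKG cells, against 3.04, 2.95 and 3.98 in BALB cells, with no overlap, so it moved with the SKG and BALB comparison, and its part in that comparison was not tested. In the transfers it was 1.67, 1.61 and 3.81 in the IFNg KO transfer, against 1.66, 1.60 and 5.13 in the IL-6 KO transfer. Results are therefore also given by replicate.

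SKG cells had more transcript than BALB cells for 6 of the 7 chemokines tested, by 2.0-fold (Ccl9) to 18.6-fold (Ccl1), and for none was it lower at adjusted p under 0.05 (limma, Benjamini-Hochberg). The share of the 12076 genes in the fit that passed as higher was 15.7%, and the share that passed as lower was 11.8%. For 5 of the 7, Ccl1, Ccl3, Ccl4, Ccl5 and Xcl1, each SKG array was above each BALB array, against 24.9% of genes in the fit. The median log2 fold change was 2.55 over the 7 chemokines and 0.06 over all genes tested. In whole-population RNA, more transcript per cell and more cells of a producing type cannot be told apart.

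Ccl1, the Ccr8 ligand, had the largest change among the chemokines. In replicates 1 to 3 its log2 level was 13.36, 13.02 and 12.21 in SKG cells, against 8.12, 9.12 and 8.70 in BALB cells. Every SKG array was at least 3 units above every BALB array. In the deposited intensities this was 8297, 6774 and 5743 in SKG cells, against 245, 499 and 480 in BALB cells. The log2 fold change was 4.22 ± 0.32 (SE, 95% interval 3.50 to 4.94, adjusted p = 0.00011, limma), the 7th largest rise of 12076 genes.

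Ccl3, Ccl4 and Ccl5, inflammatory chemokines, all rose in SKG cells. Ccl3 was at 13.48, 13.29 and 11.70 in SKG cells, against 10.20, 10.30 and 10.33 in BALB cells, which is 2.55 ± 0.39 higher (log2, SE; adjusted p = 0.0021, limma). Ccl4, its neighbour on chromosome 11, was at 13.18, 12.90 and 10.92 in SKG cells, against 9.90, 10.06 and 9.83 in BALB cells, which is 2.40 ± 0.49 higher (log2, SE; adjusted p = 0.0071, limma). SKG replicates 1 and 2 were high for both genes and SKG replicate 3 was the lowest SKG array, still above all BALB arrays. Ccl5 was at 11.65, 11.45 and 9.03 in SKG cells, against 7.19, 7.32 and 7.82 in BALB cells, which is 3.27 ± 0.59 higher (log2, SE; 95% interval 1.93 to 4.61, adjusted p = 0.0044, limma). Its order of arrays was the same, with SKG replicate 3 nearest to the BALB arrays.

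Xcl1, which acts on Xcr1-bearing dendritic cells, was at 11.07, 10.65 and 8.36 in SKG cells, against 7.07, 7.06 and 7.96 in BALB cells. SKG replicate 3 exceeded the highest BALB array, replicate 3, by 0.40. The log2 fold change was 2.67 ± 0.61 (SE, 95% interval 1.28 to 4.05, adjusted p = 0.012, limma). Ccl9, another Ccr1 ligand, was at 7.27, 7.08 and 6.13 in SKG cells, against 5.78, 5.58 and 6.18 in BALB cells, so that the groups overlapped at replicate 3. Its log2 fold change was 0.98 ± 0.31 (SE, adjusted p = 0.044, limma). This call was lost without SKG replicate 1 (adjusted p = 0.16), SKG replicate 2 (0.14), BALB replicate 1 (0.12) or BALB replicate 2 (0.13). It was also lost with no filter (adjusted p = 0.093), with no normalization (0.082), with the median of both probe sets (0.10), with all probe sets tested separately (0.051), without the intensity trend (0.059) and in the fit on 12 arrays (0.052). The second, dimmer probe set of Ccl9 lay between 4.71 and 5.22 in SKG cells and between 4.60 and 4.91 in BALB cells.

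The Ccr4 ligands did not pass the test. Ccl22 was at 4.41, 5.91 and 4.48 in SKG cells, against 5.11, 5.10 and 5.30 in BALB cells, with a log2 fold change of -0.24 ± 0.38 (SE, 95% interval -1.10 to 0.63, adjusted p = 0.70, limma). SKG replicate 2 lay above all BALB arrays and replicates 1 and 3 below them. Ccl17 was at 5.16, 5.40 and 4.09 in SKG cells, against 4.31, 4.32 and 5.13 in BALB cells, around the level of the filter. Fitted with no filter it had a log2 fold change of 0.30 ± 0.37 (SE, adjusted p = 0.70, limma).

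**Figure D1:**
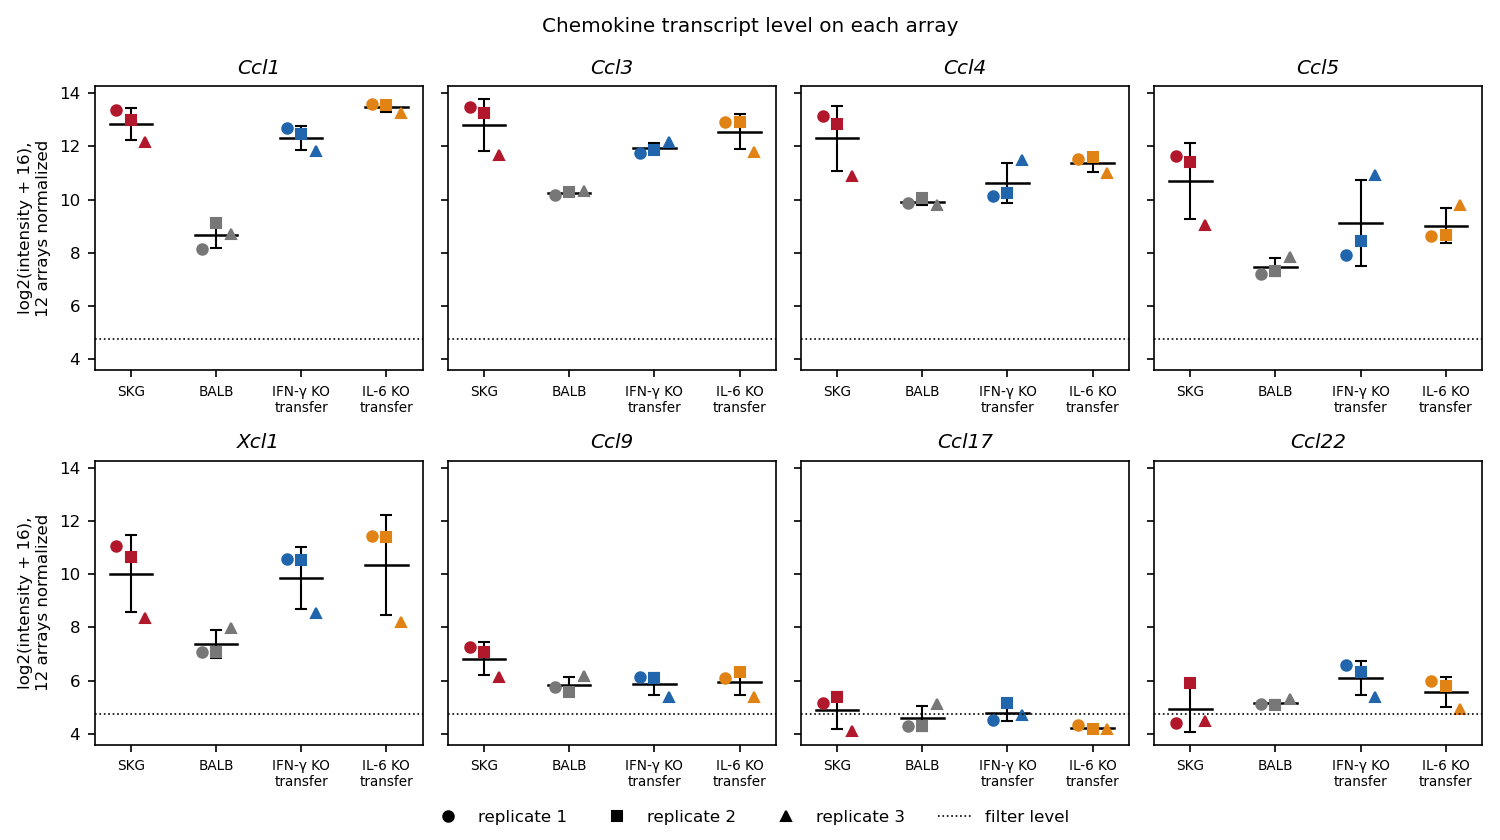
Level of each chemokine, log2(intensity + 16) with the 12 arrays normalized together, on each array of the 4 groups; points are arrays, bars the group mean ± SD (n = 3) and the dotted line the filter level. BALB arrays lie below every array of the other groups for Ccl1, Ccl3, Ccl4, Ccl5 and Xcl1. Ccl17 lies around the dotted line, and Ccl22 lies above it on every array of the transfers.

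The differences by replicate number separated replicate 3 from the others. SKG minus BALB for Ccl1 was 5.24, 3.90 and 3.51 in replicates 1 to 3. For Ccl5 it was 4.47, 4.12 and 1.21, and for Xcl1 4.01, 3.59 and 0.40. For Ccl3 it was 3.28, 2.99 and 1.37, and for Ccl4 3.28, 2.83 and 1.09. All of these were positive in 3 of 3 replicate numbers, and the difference of replicate 3 was the smallest for each of the 5 genes. Without SKG replicate 3 the log2 fold change was 4.09 for Ccl5, 3.49 for Xcl1, 3.07 for Ccl4 and 3.06 for Ccl3. The lowest values on leaving out any 1 array were 2.80 for Ccl5, 2.15 for Xcl1, 1.99 for Ccl4 and 2.23 for Ccl3. Over all alternative settings the highest adjusted p was 0.049 for Xcl1, close to the threshold, and 0.030 for Ccl4 (limma). Without BALB replicate 1, the array with the differing label, it was 3.97 for Ccl1, 3.13 for Ccl5, 2.53 for Ccl3, 2.51 for Xcl1 and 2.40 for Ccl4, each still past the threshold.

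**Figure D2:**
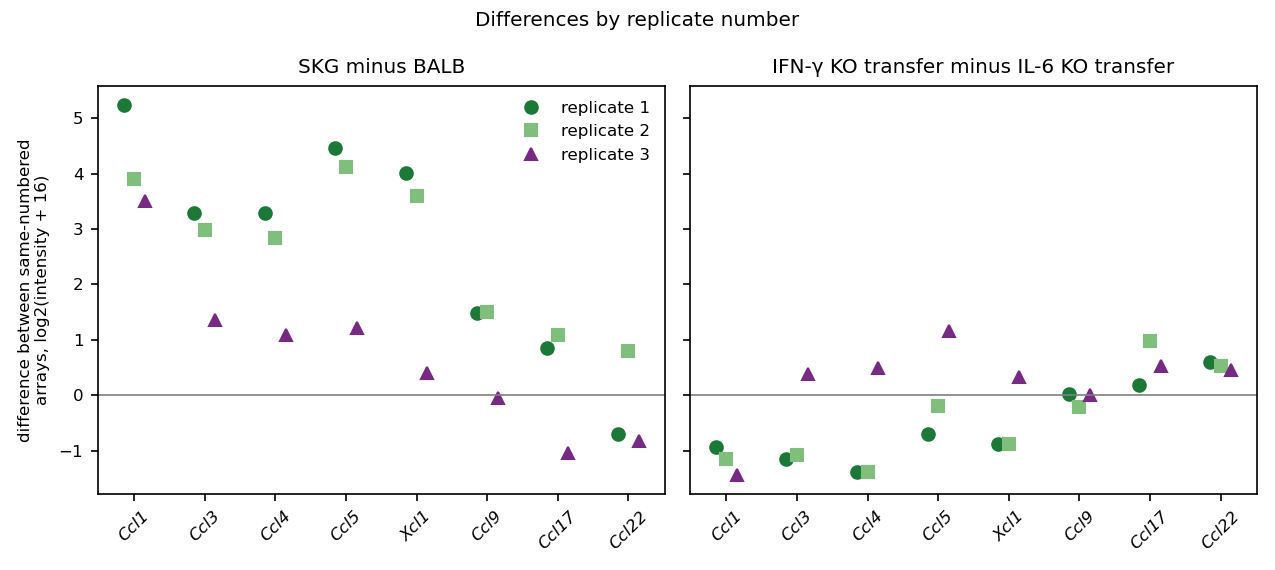
Difference between same-numbered arrays of the 2 groups of each comparison, in log2(intensity + 16), for all 8 chemokines; each point is 1 replicate number. In SKG minus BALB all 3 points are above 0 for Ccl1, Ccl3, Ccl4, Ccl5 and Xcl1, and in IFN-γ KO transfer minus IL-6 KO transfer replicate 3 lies on the other side of 0 from replicates 1 and 2 for Ccl3, Ccl4, Ccl5 and Xcl1.

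In the transferred cells no chemokine passed the test in limma without a block: 0 of 7 were higher, against 0.0653% of the 12260 genes tested, and 0 were lower, against 0.0489%. At an unadjusted p under 0.05, 1 of the 7 was lower, Ccl1, against 1.82% of all genes. The median log2 fold change was -0.48 over the 7 chemokines and 0.00 over all genes tested. Same-numbered arrays deviated together in both comparisons, most so for replicate 3, so a fit blocked on the replicate number was made too. With it Ccl1 passed as lower, 1 of 7 against 1.01% of all genes.

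Ccl1 was at 12.66, 12.43 and 11.80 in the IFNg KO transfer, against 13.59, 13.56 and 13.24 in the IL-6 KO transfer. The groups did not overlap, as was so for 4.53% of all genes in that direction, and the IFNg KO arrays were lower at each replicate number, by differences of -0.93, -1.14 and -1.44. The log2 fold change was -1.17 ± 0.22 (SE, 95% interval -1.68 to -0.66), with an adjusted p of 0.29 without the block and 0.00042 with the block (limma).

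Ccl3 was at 11.73, 11.82 and 12.14 in the IFNg KO transfer, against 12.88, 12.89 and 11.75 in the IL-6 KO transfer. Ccl4 was at 10.13, 10.21 and 11.47 in the IFNg KO transfer, against 11.51, 11.59 and 10.97 in the IL-6 KO transfer. In replicates 1 and 2 the IFNg KO arrays were the lower ones for both genes, and in replicate 3 the higher ones. The log2 fold changes were -0.61 ± 0.30 for Ccl3 and -0.76 ± 0.37 for Ccl4 (SE, both adjusted p = 1.0 without the block and 0.31 with it, limma).

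Xcl1 was at 10.54, 10.51 and 8.53 in the IFNg KO transfer, against 11.42, 11.39 and 8.20 in the IL-6 KO transfer. Replicate 3 was the lowest array of both groups. Ccl5 showed the opposite, being at 7.94, 8.46 and 10.91 in the IFNg KO transfer, against 8.63, 8.66 and 9.76 in the IL-6 KO transfer, with replicate 3 the highest of both groups. The spread within a group thus exceeded the difference between groups: the log2 fold change was -0.48 ± 0.94 for Xcl1 and 0.09 ± 0.75 for Ccl5 (SE, both adjusted p = 1.0, limma).

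Ccl9 was at 6.12, 6.10 and 5.39 in the IFNg KO transfer, against 6.10, 6.31 and 5.39 in the IL-6 KO transfer, a log2 fold change of -0.06 ± 0.32 (SE, adjusted p = 1.0, limma). Ccl22 was at 6.58, 6.31 and 5.36 in the IFNg KO transfer, against 5.98, 5.79 and 4.91 in the IL-6 KO transfer. Its same-numbered differences were 0.60, 0.52 and 0.45, all positive, and the log2 fold change was 0.53 ± 0.40 (SE, adjusted p = 1.0 without the block and 0.22 with it, limma). Ccl17 was at 4.49, 5.13 and 4.70 in the IFNg KO transfer, against 4.30, 4.16 and 4.17 in the IL-6 KO transfer. These arrays do not overlap, as was so for 5.08% of all 18193 genes in that direction, and fitted with no filter the log2 fold change was 0.56 ± 0.18 (SE, adjusted p = 0.97, limma).

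The number of chemokines that passed in the transfer depended on replicate 3. With replicates 1 and 2 only, 4 of 7 were lower in the IFNg KO transfer, against 1.94% of all genes: Ccl4 by a log2 fold change of -1.34, Ccl3 by -1.05, Ccl1 by -0.997 and Xcl1 by -0.85 (adjusted p from 4.1e-06 to 7.1e-05, limma). With array weights, which count a discordant array less, 3 of 7 were lower, against 0.742% of all genes. The first of these settings was chosen after the data were seen. The Gapdh and actin ratios given above were highest in replicate 3 of both transfer groups. The 3 neutrophil markers on the array had a summed intensity of 61.3, 292.5 and 255.9 in replicates 1 to 3 of the IFNg KO transfer, against 118.7, 45.2 and 1431 in those of the IL-6 KO transfer, so replicate 3 was the highest array in the IL-6 KO transfer and not in the IFNg KO transfer. Their part in the result was not tested.

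**Figure D3:**
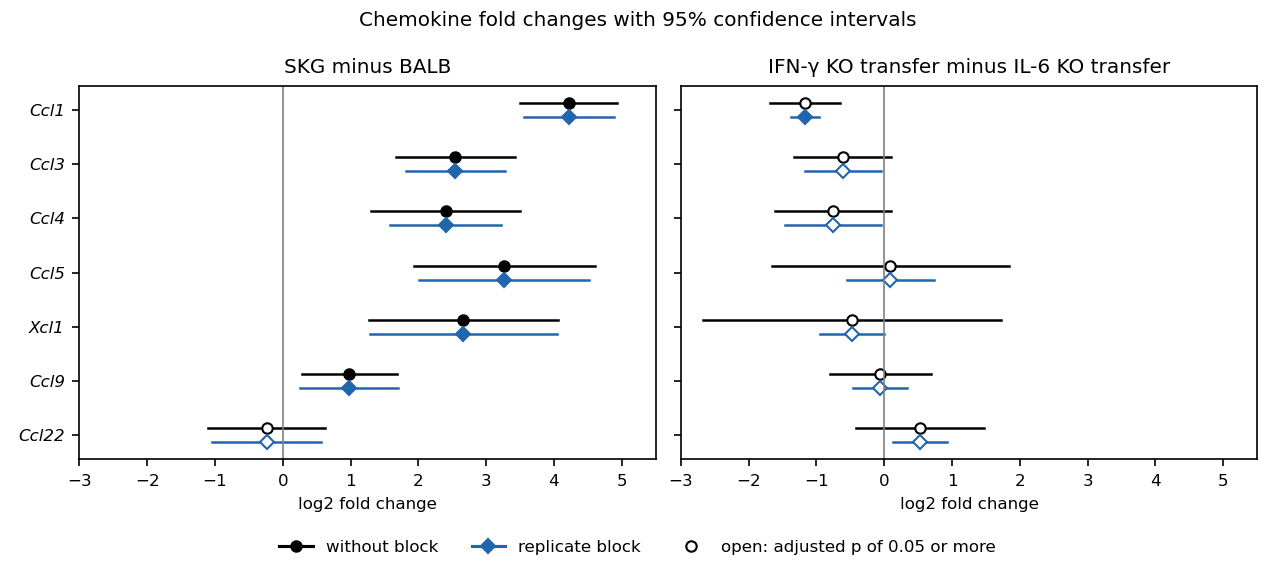
Log2 fold change of the 7 tested chemokines with its 95% confidence interval, for SKG minus BALB (left) and IFN-γ KO transfer minus IL-6 KO transfer (right), without a block and with the replicate number as a block (n = 3 arrays a group); open symbols have an adjusted p of 0.05 or more. Filled symbols lie above 0 for 6 chemokines in SKG minus BALB, and Ccl1 with the block is the 1 filled symbol on the right.

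The order in which the 2 transfer groups are subtracted is a choice, and the size of a difference between the comparisons depends on it. This difference was tested directly on all 12 arrays, as the SKG minus BALB change less the IFNg KO minus IL-6 KO transfer change. It was above 0 for Ccl1 (5.33 ± 0.44, adjusted p = 5.8e-05), Ccl3 (3.16 ± 0.56, adjusted p = 0.0060) and Ccl4 (3.15 ± 0.69, adjusted p = 0.016), in log2 units with SE (limma). This was 3 of 7 chemokines, against 4.88% of 12176 genes. For Ccl5 the difference was 3.16 ± 1.07 (adjusted p = 0.092 without the block and 0.0087 with it), and for Xcl1 3.12 ± 1.25 (adjusted p = 0.15 without the block and 0.010 with it). With the block the count was therefore 5 of 7, against 15.3% of all genes. Without SKG replicate 2 the difference for Ccl4 was 2.88 and missed the threshold (adjusted p = 0.051), and without SKG replicate 3 it was 3.83. The same 3 genes, Ccl5 and Xcl1 had their lowest mean level in BALB cells, and no BALB array of these 5 genes reached an array of another group with the 12 arrays normalized together. That is 5 of 7 chemokines, against 16.3% of 12176 genes.

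The order of the group means differed between chemokines. For Ccl1 and Xcl1 it was IL-6 KO transfer, SKG, IFNg KO transfer and BALB, from high to low. For Ccl3 and Ccl4 it was SKG, IL-6 KO transfer, IFNg KO transfer and BALB, and for Ccl5 the IFNg KO transfer stood second. Among the 3 groups above BALB, neighbours in the order overlapped for each of these 5 genes. For Ccl9, Ccl17 and Ccl22 every pair of neighbours in the order overlapped.

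Of the receptors of these chemokines, 5 were on the array and 4 were tested between SKG and BALB cells. Of these 2 were higher and 0 lower than in BALB cells, with a median log2 fold change of 0.54. Ccr4, the receptor of Ccl17 and Ccl22, averaged 7.32 ± 0.23 in SKG cells and 5.87 ± 0.36 in BALB cells (SD, n = 3 each; log2 fold change 1.45, adjusted p = 0.0023, limma). Ccr1, bound by Ccl3, Ccl5 and Ccl9, averaged 5.72 ± 0.45 in SKG cells and 4.54 ± 0.33 in BALB cells (log2 fold change 1.18, adjusted p = 0.016, limma). Ccr8, the receptor of Ccl1, averaged 6.18 ± 0.54 in SKG cells and 6.98 ± 0.72 in BALB cells, a log2 fold change of -0.79 ± 0.38 (SE, adjusted p = 0.16 without the block and 0.019 with it, limma). Xcr1, which marks dendritic cells, had a log2 fold change of -0.10 (adjusted p = 0.77, limma). In the transfer 4 receptors were tested, and 0 were higher or lower, with or without the block.

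Among the other chemokine receptors, 6 of 10 tested were higher and 2 lower in SKG cells. Ccr2, the receptor that leads cells to inflamed tissue, had a log2 fold change of 4.16, Cxcr6 3.68, Ccr6 (found on Th17 cells) 2.92 and Cxcr3 (found on Th1 cells) 2.47, with adjusted p between 5.1e-05 and 0.00022 (limma). In the transfer 0 of 10 passed in limma without the block, and 3 were higher in the IFNg KO transfer with it, Ccr2, Ccr6 and Cxcr3. Ccr6 had a log2 fold change of 3.02 ± 0.64 there (SE, adjusted p = 0.40 without the block and 0.0020 with it, limma).

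Of 26 other chemokines on the array, 15 were tested between SKG and BALB cells, and 1 was higher and 1 lower, with a median log2 fold change of 0.06. Ccl20, the Ccr6 ligand, averaged 9.73 ± 1.11 in SKG cells and 6.08 ± 1.03 in BALB cells (SD, n = 3 each; adjusted p = 0.0028, limma). Cxcl10, an interferon-induced Cxcr3 ligand, averaged 7.75 ± 0.48 in SKG cells and 10.36 ± 0.31 in BALB cells (adjusted p = 0.00033, limma). With the block Cxcl11, with a log2 fold change of -0.66, also passed as lower in SKG cells. In the transfer Ccl20 alone of 16 passed, with a log2 fold change of 2.92 ± 0.25 (SE, adjusted p = 0.0086, limma). With the block Cxcl9 (-1.23) and Cxcl11 (-1.15), both induced by interferon-γ, also passed as lower in the IFNg KO transfer. Of the 7 tested genes of chemokine handling, which include the atypical receptors, the protease gene Dpp4 and the granule proteoglycan gene Srgn, 0 passed in either comparison in limma, with or without the block.

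**Figure D4:**
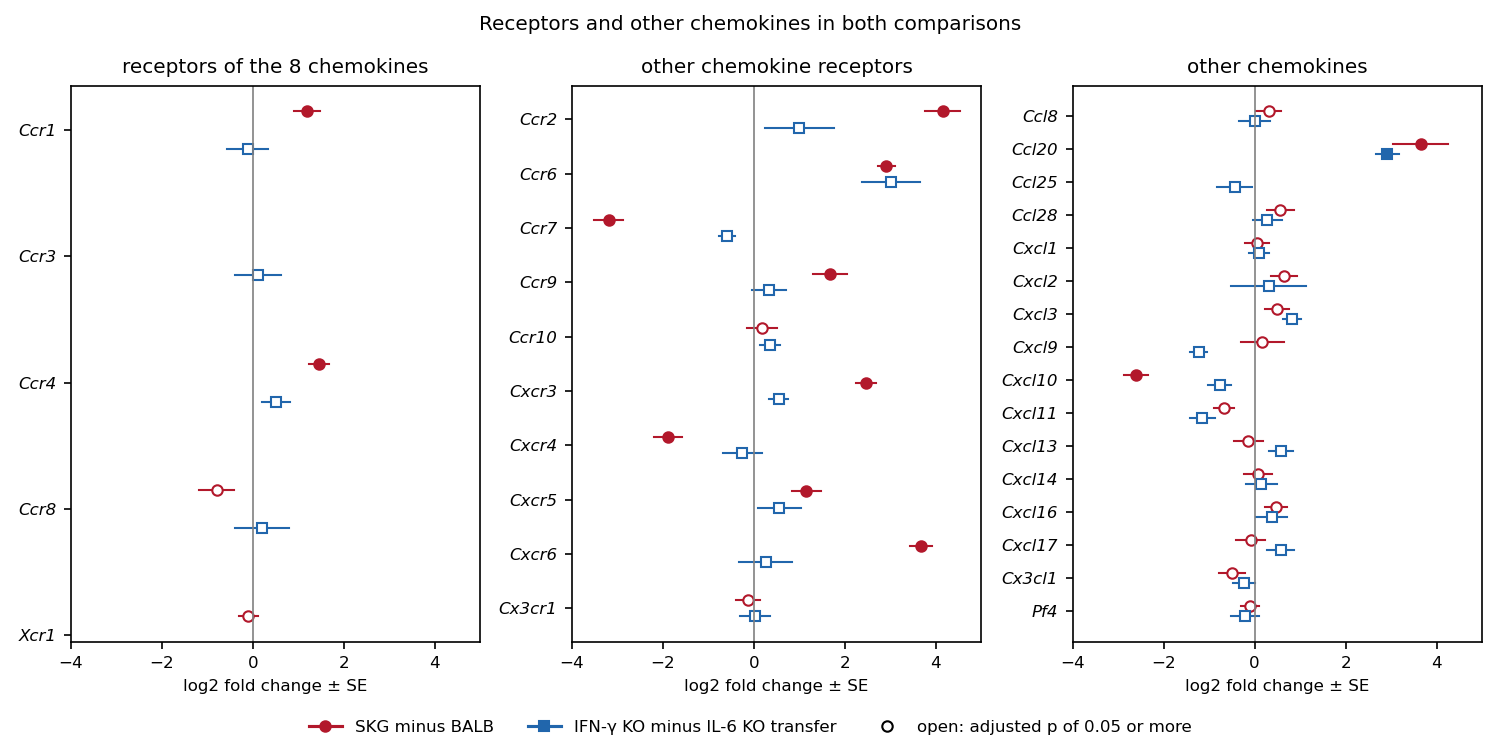
Log2 fold change ± SE of receptors of the 8 chemokines, other chemokine receptors and other chemokines, for SKG minus BALB (circles) and IFN-γ KO minus IL-6 KO transfer (squares); open symbols have an adjusted p of 0.05 or more without the block, and a gene not tested in a comparison has no symbol. Ccl20 is the 1 gene with a filled symbol in both comparisons, and Ccr7, Cxcr4 and Cxcl10 are the filled symbols below 0.

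Of 20 genes listed as transcription factors of chemokine genes, the NF-kappaB gene Nfkb1 had no probe set annotated to it alone and was not tested. The other 19 were all tested. Of these 4 were higher in SKG cells, against 15.7% of all genes, and 9 lower, against 11.8%. The NF-kappaB genes Rel (log2 fold change -1.27), Nfkb2 (-0.69), Rela (-0.63) and Relb (-0.56) were lower, as was Nfatc1 (-0.73). Their adjusted p was between 0.0043 and 0.035 (limma). Nfatc2 (0.66) had an adjusted p of 0.051 without the block and 0.023 with it (limma). Nfatc3 (0.03, adjusted p = 0.92 without the block and 0.91 with it, limma) did not pass. Eomes (1.63) had an adjusted p of 0.085 without the block and 0.028 with it (limma). With the block 6 of the 19 were higher, where 2402 of 12076 genes were, and 9 lower, where 1769 genes were. Maf, a factor of Th2, Th17 and Tfh cells, averaged 11.56 ± 1.0 in SKG cells and 8.64 ± 0.16 in BALB cells (SD, n = 3 each; log2 fold change 2.93, adjusted p = 0.0014, limma). Hopx had a log2 fold change of 1.63 (adjusted p = 0.0016, limma). Tbx21, which encodes the Th1 factor T-bet, was lower, at a log2 fold change of -1.07 (adjusted p = 0.00053, limma). So was Irf1, an interferon-induced factor, at -1.14 (adjusted p = 0.00016, limma). In the transfer 0 of 19 passed without the block, and with it 1 was lower, Gata3, with a log2 fold change of -0.68.

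Genes most like each chemokine were sought by Pearson correlation of levels over the 12 arrays, among 12169 genes. For Ccl1 these were Tmem29 (r = 0.987), Snrpf (0.973) and Nudcd2 (0.970). For Ccl3 they included Nkg7 (0.965), a granule membrane protein of cytotoxic cells, after Erp44 (0.966) and before 2700097O09Rik (0.957). Ccl4 shared the last of these (0.914), after Chmp2b (0.948) and Gpm6b (0.914). The nearest to Ccl5 were Nab1 (0.949), Cldn12 (0.946) and Il10 (0.942), an anti-inflammatory cytokine. The nearest to Xcl1 were Smc2 (0.956), Mettl9 (0.952) and Adck1 (0.951). Ccl9 was nearest to Slc7a5 (0.903), an amino acid transporter subunit, Crtam (0.900) and Igkv8-30 (0.894), and Ccl22 to Smpd1 (0.932), Atp5g3 (0.927) and Snx17 (0.924). The arrays share groups and replicate structure, and the values describe these arrays only.

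Markers of other cells that make chemokines were examined as summed intensity with the 12 arrays normalized together. The 6 NK cell markers on the array summed to 463 to 2007 in SKG cells and 111 to 151 in BALB cells. Most of this was Nkg7, at 1911, 1586 and 299 in SKG replicates 1 to 3 and 57, 74 and 80 in BALB replicates 1 to 3. Activated T cells also express Nkg7. For Nkg7 SKG replicate 3 was the lowest SKG array, as it was for Ccl1, Ccl3, Ccl4, Ccl5, Xcl1, Ccl9 and Ccl17. The same held for the T cell markers Cd3g and Cd2 and the B cell marker Ighm, but not for Cd3e or Cd4. Of the 3 NK cell genes tested, 2 were higher in SKG cells, Nkg7 (log2 fold change 3.53, adjusted p = 0.0029, limma) and the receptor gene Klrd1 (0.70, adjusted p = 0.039, limma). Klrd1 was at an intensity of 49.0, 39.7 and 68.1 in SKG cells, against 28.9, 25.6 and 21.8 in BALB cells. Klrk1 was at 20.2, 25.8 and 60.3 in SKG cells, against 18.2, 20.7 and 18.3 in BALB cells (adjusted p = 0.26, limma). For Klrd1 and Klrk1 SKG replicate 3 was the highest SKG array, and so not in the order of Nkg7. Among the untested genes it was the highest SKG array for Ncr1 and the lowest for Klra8. The untested receptor genes Ncr1, Klra8 and Klre1 did not exceed 22.6, 14.5 and 14.5 on any of the 12 arrays, where the filter level was an intensity of 10.6. In the transfer, where hosts keep NK cells, the 6 markers summed to 801 to 1106 in the IFNg KO transfer and 701 to 1390 in the IL-6 KO transfer, and 0 of 3 tested passed in limma, with or without the block. The part of NK cell RNA in the chemokine differences was not tested.

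Macrophage and monocyte markers (8 on the array) summed to 155 to 217 in SKG cells and 186 to 239 in BALB cells, so the groups overlapped, and 0 of 7 tested passed in limma without the block and 1 with it, as lower in SKG cells. The 6 dendritic cell markers on the array summed to 69.9 to 127.4 in SKG cells and 64.4 to 103.2 in BALB cells, so the groups overlapped. Of 4 tested, 1 was higher in SKG cells without the block, Zbtb46 (log2 fold change 0.75, adjusted p = 0.047, limma), and 0 with it. In the transfer 0 of 3 tested passed, with or without the block. The part of dendritic cell RNA in the chemokine differences was not tested. The 9 B cell markers summed to 2956 to 6857 in SKG cells and 740 to 2527 in BALB cells. Of 7 tested, 1 was higher in SKG cells, Ighm (log2 fold change 1.94, adjusted p = 0.012, limma), which made up most of that sum. Blk was at 50.8, 55.4 and 33.5 in SKG cells, against 13.4, 5.3 and 34.3 in BALB cells (adjusted p = 0.052, limma). Over the 12 arrays the highest intensity was 128.6 for Ms4a1, 76.9 for Blnk, 70.2 for Fcer2a, 21.2 for Cd79a and 16.9 for Cd79b. Of 4 plasma cell genes, 2 were higher in SKG cells, Xbp1 and Derl3. Jchain did not pass (log2 fold change 1.01, adjusted p = 0.12, limma). Sdc1 went the other way and did not pass either (-0.64, adjusted p = 0.085, limma). It was at 9.55, 16.45 and 23.2 in SKG cells, against 46.2, 29.8 and 27.5 in BALB cells. The part of B-lineage RNA in the chemokine differences was not tested. The 2 CD8 markers had fold changes of opposite sign. Cd8b1 was lower, at 11.5, 13.8 and 84.1 in SKG cells, against 227, 235 and 233 in BALB cells (log2 fold change -2.49, adjusted p = 0.0036, limma). Cd8a was at 17.5, 37.0 and 41.8 in SKG cells, against 11.1, 18.7 and 4.1 in BALB cells (log2 fold change 0.81, adjusted p = 0.072, limma).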

How the data were processed

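CD4+ T cell RNA of 12 mouse samples was hybridised to 1-colour arrays, 3 for each of 4 groups. The deposited values are linear intensities, 1 for each of 45101 probe sets and array. No source used here names the software or the normalization behind them. The 64 control probe sets were left out. Arrays of a comparison were quantile normalized together and taken as log2(intensity + 16). The annotation gave 1 gene for 34945 probe sets, of which 34741 had their symbol checked by gene ID, several genes for 932, and did not list 9160. The brightest probe set stood for a gene. Genes at or above the 40th percentile were tested with limma 3.58.1 in R 4.3.3 (lmFit, eBayes with trend), two-sided, with Benjamini-Hochberg adjustment over all genes tested. The procedure was tested on simulated data. Promoter motifs were searched in Python 3.11.15. No depth applies to arrays; their number limits the precision.

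The chemokines and the gene lists were chosen with earlier results of these data known. All 8 chemokines are named, with up to 4 genes of each related list by smallest p. So are the 3 genes most correlated with each chemokine and markers of other cells beside a result. Cxcl9, Cxcl11, Gata3 and the genes of NF-kappaB and NFAT factors were named after their values were seen. This also holds for genes that passed with the block.

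The labels number replicates 1 to 3 in each group. Each array's departures from its group mean were correlated across genes with those of the array of the same number. In the SKG and BALB comparison r was 0.13, 0.20 and 0.33, and in the transfer it was 0.46, 0.45 and 0.70, so the numbers were taken as pairs. For replicates 1 and 2 of opposite groups and unlike number, r was 0.17 and 0.17 in the SKG and BALB comparison. Both values exceeded the same-number r of replicate 1, so replicates 1 and 2 gave no clear sign of pairing there. In the transfer the unlike numbers correlated nearly as much as the same ones (0.41 and 0.44). The pairing therefore rests mainly on replicate 3. Alternatives varied the added constant, filter, normalization, probe set rule, trend, arrays in the fit, block, array weights and single arrays.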

Additional observations from a re-analysis of the deposited data

Results flagged for a closer look

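The change between SKG and BALB cells differed from the change between the IFNg KO and IL-6 KO transfers for 3 chemokines, by the interaction test over 12 arrays in limma. The difference was 5.33 in log2 units for Ccl1 (adjusted p = 5.8e-05), 3.16 for Ccl3 (adjusted p = 0.0060) and 3.15 for Ccl4 (adjusted p = 0.016). Its size depends on the order in which the transfer groups are subtracted, which is a choice. Age, tissue, labelled FR4 selection, stimulation and the transfer into hosts without RAG2 differ between the comparisons and cannot be told apart from this difference.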

How the results depend on the processing

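Over 21 chemokine fold changes, 453 values were computed under alternatives: 405 kept direction and side of the threshold, 11 lost the call, 23 gained one and 14 changed sign. Between SKG and BALB cells, 3321 genes passed, against 1960 with no normalization, 5443 with all probe sets tested separately, 5124 with array weights, 5070 with replicates 1 and 2 only, and 2000 to 3907 leaving out 1 array. The count of chemokines was 5 to 7 throughout. Between the transfers 14 genes passed, against 9 with the median probe set, 30 in the fit on 12 arrays, 219 with the replicate block, 187 with array weights, 501 with replicates 1 and 2 only, 352 with replicate 3 as a batch, and 2 to 26 leaving out 1 array. The chemokines numbered 0, against 1 with the replicate block, 3 with array weights, 4 with replicates 1 and 2 only, 1 with replicate 3 as a batch, and 0 leaving out any 1 array. For the difference between the comparisons, 3 chemokines passed, against 5 with the replicate block, 6 with array weights, 6 with replicates 1 and 2 only, 6 with replicate 3 as a batch, and 2 to 4 leaving out 1 array. All genes passing as higher there numbered 594 of 12176, against 1859 with the replicate block and 2135 with array weights. They numbered 2202 of 12150 with replicates 1 and 2 only, 2161 with replicate 3 as a batch, and 310 to 890 leaving out 1 array. Replicates 1 and 2 only and replicate 3 as a batch were chosen after seeing the data. Signs changed in fold changes that had not passed. Ccl22 in SKG cells was 0.074 with replicates 1 and 2 only and -0.72 to 0.023 leaving out 1 array. In the transfer Ccl5 was -0.35 with array weights, -0.43 with replicates 1 and 2 only and -0.81 to 0.68 leaving out 1 array. Xcl1 was -1.52 to 0.19 leaving out 1 array, and Ccl9 was 0.038 with trimmed-mean scaling and -0.34 to 0.18 leaving out 1 array. The causes were not tested. The replicate block changed no chemokine's call other than those of Ccl1, Ccl5 and Xcl1 given with the comparisons, and dim probe sets limit what can be said of Ccl17 and Ccl22.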
